A study of Homo sapiens with 4 samples.

Results

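BACH1 sites that were strong in both airway lines are pairs of overlapping bound regions, one from the peak list of each line, that both stood in the top 25% of their list. The lines were 16HBE14o-, an immortalised line of human bronchial epithelial cells, and Calu3, a human lung adenocarcinoma line. Both were grown in DMEM with 10% FBS, with no treatment named in the labels, and BACH1-bound DNA was collected by chromatin immunoprecipitation with the same rabbit antibody. Each line gave 2 replicates, 4 samples in all, which the authors reduced to 1 list of reproducible peaks per line. The lists held 3393 regions in 16HBE14o-, after rows that overlapped were merged, and 10246 in Calu3. Of the 3393 regions, 570 (16.8%, 95% exact binomial interval 15.6 to 18.1) were members. They met 566 different Calu3 regions, 5.52% of that list (95% exact interval 5.09 to 5.98), because 4 Calu3 regions each held 2 members.

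BACH1 is a basic leucine zipper factor of the CNC family. It pairs with small MAF proteins on antioxidant response elements and represses genes of haem breakdown, iron storage, glutathione synthesis and other defences against oxidants, and it leaves these sites when haem binds to it. NRF2, an activator of the same family, can occupy the same elements. The series title ties BACH1 to CFTR, the chloride channel gene that is mutated in cystic fibrosis.

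Strength was the value in the seventh column of each list, a peak signal of unstated scale in 16HBE14o- and a fold enrichment in Calu3. Members had a signal of at least 42.1 and a fold enrichment of at least 6.23. The members were thus chosen by these values and by the overlap, so both are given below as description and are not tested. The 2 scales cannot be set against each other, and each list pools its replicates, so there is no spread between replicates for any value. Each binomial interval covers counting error over regions only, and neighbouring regions are not independent of one another.

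No sequence of the build of the lists, hg19, was used here, and regions were not assigned to genes from an annotation. The promoter shown as an example is that of GCLM, the modifier subunit of the enzyme that starts glutathione synthesis. It was picked after its letters were searched, because it holds a match to the motif and because a member lay, by general knowledge of the genome and not by an annotation, at the start of this gene, at chr1:94374922-94375161 in 16HBE14o- and from 94374433 to 94375356 in Calu3. The sequence is the 250 bases before the start of GCLM in the RefSeq table of GRCh38.p14, minus strand, written 5′ to 3′ in the direction of the gene. Its distance to the summits was not measured, because the builds differ. Capitals mark the match to TGACNNNGC, the core of the antioxidant response element.

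GCLM: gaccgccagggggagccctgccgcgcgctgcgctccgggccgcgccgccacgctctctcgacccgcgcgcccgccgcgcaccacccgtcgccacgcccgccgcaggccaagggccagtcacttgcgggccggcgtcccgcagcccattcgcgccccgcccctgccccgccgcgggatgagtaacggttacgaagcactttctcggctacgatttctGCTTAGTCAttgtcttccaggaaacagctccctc

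The match was the single one in the 300-base table entry, which also holds 50 bases after the start, with both strands searched. It covered bases 34 to 26 before the start and read TGACTAAGC on the other strand. Among the 35116 promoter entries of the table, 13.3% held TGACNNNGC on either strand. The AP-1 heptamer TGACTCA, which can overlap the core, had no match in the GCLM entry and was present in 4.95% of all entries. The other genes named below were searched in the same way. Of the 13 genes named at a pair, GCLM included, 10 had an entry in the table, and 4 of them held TGACNNNGC in at least 1 entry (GCLM, FECH, TXNRD1 and ME1, the last at a pair that was no member). In the 6 others, FTL, NQO1, SRXN1, SLC48A1, SQSTM1 and BACH1, it was not found in these windows. Counted by entry, as the 13.3% is, 5 of the 15 entries of the 10 genes held TGACNNNGC. These genes were picked because BACH1 or NRF2 is known for them, and the difference was not tested. A match is a run of letters in this window and does not show where BACH1 was bound. At GCLM the signal in 16HBE14o- was 135 (rank 62) and the fold enrichment in Calu3 was 33.7 (rank 25).

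Of the 849 top-25% regions of 16HBE14o-, 570 (67.1%, 95% exact interval 63.9 to 70.3) overlapped a top-25% Calu3 region as their best partner. A further 147 (17.3%) overlapped a Calu3 region below its cut, and 132 (15.5%) overlapped no Calu3 region. Over the whole 16HBE14o- list, 27.7% of the regions had a best partner in the top 25% of Calu3 and 46.5% met any Calu3 region. The shares looked different from the side of Calu3, whose list was longer. Of its 2564 top-25% regions, 566 (22.1%, 95% exact interval 20.5 to 23.7) belonged to members, 369 met only 16HBE14o- regions with which they formed no member, and 1629 (63.5%) met none. Over the whole Calu3 list 15.3% met a 16HBE14o- region.

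**Figure D1:**
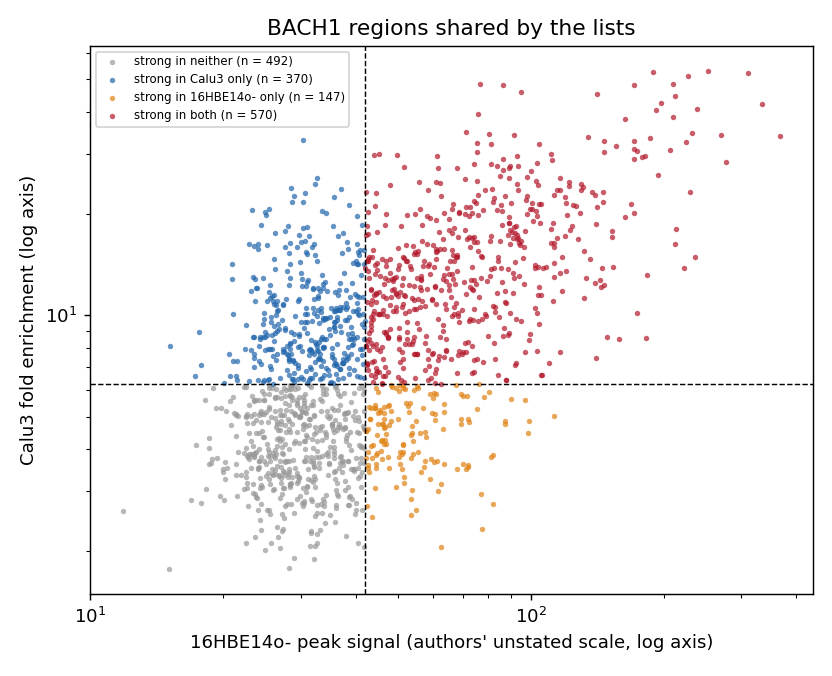
Each point is 1 of the 1579 pairs of overlapping regions, with the 16HBE14o- peak signal on the horizontal and the Calu3 fold enrichment on the vertical axis, both logarithmic; dashed lines are the cuts at 42.1 and 6.23. The 570 pairs strong in both lines fill the upper right, and 370 pairs passed the Calu3 cut alone, 147 the 16HBE14o- cut alone and 492 neither.

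Members spanned the whole range of the top 25% of each list. Their 16HBE14o- signal had a median of 68.6 (interquartile range 52.04 to 94.4, maximum 366), beside 60.7 over all 849 top-25% regions. Their Calu3 fold enrichment had a median of 13.5 (interquartile range 9.89 to 19.6, maximum 53.0), beside 9.13 over all top-25% Calu3 regions. Top-quarter regions that met nothing in the other list were nearer to their cut, with a median signal of 50.2 in 16HBE14o- and a median fold enrichment of 8.39 in Calu3. All 40 regions at ranks 1 to 40 of 16HBE14o- were members, and so were 95 of the first 100, while 78 of the first 100 Calu3 regions were. A member's within-list percentiles differed by a median of 5.25 points, where the rule allows no more than about 25.

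The cuts separated sites of nearly equal strength. Just inside the 16HBE14o- cut lay members on chromosomes 8, 12 and 7 with signals of 42.1, 42.1 and 42.2, and just outside it lay pairs on chromosomes 17, 4 and 10 with 41.97, 41.85 and 41.82. Just inside the Calu3 cut lay members on chromosomes 20, 12 and 18 with fold enrichments of 6.229, 6.254 and 6.289. The pairs just outside it, on chromosomes 16, 2 and 20, had 6.227, 6.215 and 6.215.

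The members include sites at the best known BACH1 target genes. The gene names in this and the next 2 paragraphs rest on general knowledge of where these genes lie in hg19, with no annotation used, and the genes were picked after the values were seen because BACH1 or NRF2 is known for them. No share of target genes is therefore given. Chromosome 22 held 10 members. The 2 from 35767950 to 35768195 and from 35772972 to 35773205 lie upstream of HMOX1, which encodes the enzyme that breaks down haem. They held ranks 2 and 1 in 16HBE14o- and 12 and 24 in Calu3. The ferritin genes, whose products store iron, each had 1 member. At FTH1, the heavy chain gene, it lay at chr11:61739422-61739591, with a signal of 212 (rank 15) and a fold enrichment of 44.7 (rank 10). At FTL, the light chain gene, it lay at chr19:49467140-49467240, with a signal of 171 (rank 31) and a fold enrichment of 29.04 (rank 49).

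Sites at haem genes outside breakdown and at glutathione and thioredoxin genes were members too, over a wider range of strength. At SLC7A11, the cystine importer that feeds glutathione synthesis, the member at chr4:139163573-139163636 had a signal of 171 (rank 32) and a fold enrichment of 31.04 (rank 35). TXNRD1, thioredoxin reductase, had 2 members on chromosome 12. The first, chr12:104613255-104613318, had ranks of 61 (16HBE14o-) and 443 (Calu3), and the second, chr12:104680591-104680830, had ranks of 701 and 990. SRXN1, the sulfiredoxin gene, had a member at chr20:633994-634233 that lay near the 16HBE14o- cut, with a signal of 42.8 (rank 812) and a fold enrichment of 12.9 (rank 597). At FECH, the enzyme that completes haem, the member at chr18:55254074-55254313 ranked 421 in 16HBE14o- and 87 in Calu3. At SLC48A1, a haem transporter, the member at chr12:48169348-48169587 ranked 102 and 261.

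Sites at other genes of the oxidant response fell on both sides of the cuts. At NQO1, the quinone reductase, the member at chr16:69760788-69761027 had a signal of 105 (rank 112) and a fold enrichment of 18.8 (rank 230). At ME1, an enzyme that supplies NADPH, the pair at chr6:84140797-84141036 ranked 207 in Calu3 and 2510 in 16HBE14o-, so it was no member. At BACH1 itself the pair at chr21:30672525-30672764 had a signal of 39.98 (rank 932), just under the 16HBE14o- cut, and a fold enrichment of 14.5 (rank 456).

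The 10 members with the lowest sum of ranks included the HMOX1 pair, the FTH1 site and chr16:1429013-1429161. The other 6 were chr11:66659698-66659896, chr1:9779261-9779418, chr1:204616759-204616914, chr8:131012236-131012379, chr3:53304213-53304347 and chr7:100743494-100743665. Their regions were 135 to 199 bp wide in 16HBE14o- and 495 to 734 bp wide in Calu3. The next 10 were sites on chromosomes 4, 18, 4, 7, 17, 10, 12, 9, 16 and 6. The first 3 of them were chr4:8305441-8305586 (ranks 9 in 16HBE14o- and 19 in Calu3), chr18:9017209-9017335 (ranks 20 and 11) and chr4:75608043-75608179 (ranks 18 and 16). Next were chr7:92439156-92439268 (ranks 22 and 14), chr17:78228686-78228826 (ranks 33 and 6), chr10:73620304-73620450 (ranks 12 and 30) and chr12:120524782-120524922 (ranks 24 and 26). The last were chr9:5839437-5839536 (ranks 37 and 17), chr16:9141761-9141898 (ranks 19 and 36) and chr6:3002151-3002331 (ranks 4 and 53). All 10 were among the first 40 regions of 16HBE14o-, and the summits of their pairs lay 0 to 22 bp apart.

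Some members stood far apart in the order of the lists. The 5 that ranked highest in Calu3 relative to 16HBE14o- sat just above the 16HBE14o- cut. The first was chr15:100890866-100891105, with a signal of 42.3 (rank 839) and a fold enrichment of 23.2 (rank 114), and the third was chr11:15990982-15991221, with a signal of 44.04 (rank 765) and a fold enrichment of 29.8 (rank 43). The others lay at chr1:9335667-9335906, at chr12:55329171-55329410 and at chrX:16042261-16042500. In the other direction, chr11:67147138-67147377 had a signal of 106 (rank 108) and a fold enrichment of 6.66 (rank 2289), and chr1:24620902-24621141 had a signal of 140 (rank 57) and a fold enrichment of 7.48 (rank 1867). The members chr16:88366910-88367352, chr14:58711784-58712023 and chr5:10689533-10689772 completed that set, with Calu3 ranks from 2298 to 2422. The within-list percentiles of these 10 members differed by 16.6 to 23.6 points.

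The position of the summit within a region was not used to choose the members. The summits of the lines lay a median of 13 bp apart in the members (interquartile range 6 to 25). They lay 18 bp apart in the 147 pairs strong in 16HBE14o- only, 19 bp in the 370 pairs strong in Calu3 only and 30 bp in the 492 pairs strong in neither. Summits within 10 bp of each other were found in 229 members (40.2%, 95% exact interval 36.1 to 44.3), against 34.7%, 27.8% and 19.9% of these 3 classes in the same order. Within 50 bp lay 547 members (96.0%, 95% exact interval 94.01 to 97.4), against 89.8%, 88.6% and 76.4%. The intervals of the members did not overlap those of the pairs strong in neither (16.5 to 23.7% within 10 bp, 72.4 to 80.1% within 50 bp) at either distance. Nor did they overlap those of the pairs strong in Calu3 only (23.3 to 32.7% within 10 bp, 85.0 to 91.7% within 50 bp). The members' intervals did overlap those of the pairs strong in 16HBE14o- only (27.04 to 43.0% within 10 bp, 83.7 to 94.2% within 50 bp). Within 50 bp this overlap was narrow. No test over samples could be made of these differences.

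**Figure D2:**
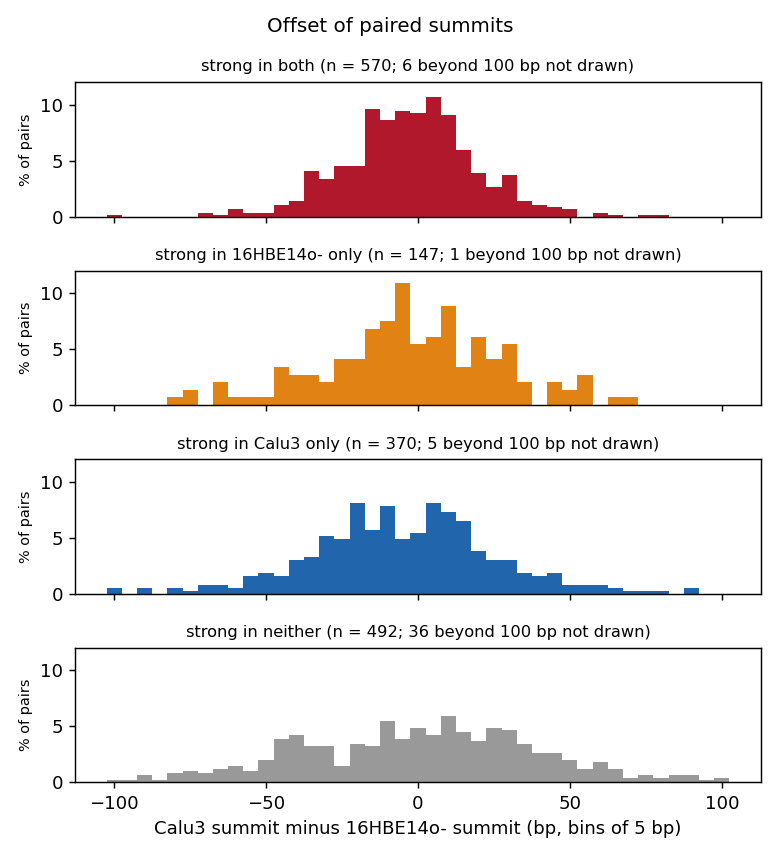
Histograms of the Calu3 summit position minus the 16HBE14o- summit position in bins of 5 bp, as a percentage of the pairs of each class, for the 4 classes of strength. Of the members (top) 96.0% lay within 50 bp, and of the pairs strong in neither line (bottom) 76.4%.

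The Calu3 summit lay at the higher position in 260 members, at the lower position in 301 and on the same base in 9, with a median offset of −2 bp. Among the members the distance was shorter at stronger sites. In 4 equal bins of Calu3 fold enrichment, from the weakest to the strongest, its median was 15 bp, 16 bp, 13 bp and 10 bp. In 4 bins of 16HBE14o- signal it was 16 bp, 16 bp, 11 bp and 12 bp. These differences between bins are about as large as those between the members and the pairs strong in 1 line only. Across the 570 pairs, which are not independent replicates, Spearman's rho of the distance was −0.16 with the fold enrichment and −0.19 with the signal.

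Summits over 100 bp apart occurred in 6 members (1.05%), against 0.68% of the pairs strong in 16HBE14o- only (1 of 147), 1.35% of those strong in Calu3 only and 7.32% of those strong in neither. Of these 6 members, 5 lay in a Calu3 region that held more than 1 region of 16HBE14o-. Calu3 regions of this kind numbered 5 among the members. The widest, 2000 bp at chr5:179245967-179247966, lies at SQSTM1, the gene of the autophagy receptor p62, by the same general knowledge. It held 3 regions of 16HBE14o-. The member from 179246466 to 179246705 had rank 123 in 16HBE14o- and its summit lay 28 bp from that of Calu3. The member from 179247442 to 179247681 had a signal of 72.2 (rank 304) and lay 948 bp away, and the remaining region (rank 927) missed the cut with a signal of 40.2. The Calu3 list gave this stretch 1 fold enrichment, 19.6 (rank 211).

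On chr16:1428819-1429833, the Calu3 region of rank 5 held members of rank 17 and 260 in 16HBE14o-, with signals of 210 and 76.5 and summits 1 bp and 532 bp from that of Calu3. A second region on chromosome 16, from 90060995 to 90062621 (rank 86 in Calu3), held members of rank 494 and 77. There the stronger 16HBE14o- summit was the one farther from the Calu3 summit, at 765 bp against 189 bp. On chromosome 1 the region from 151945023 to 151945792 held members of similar rank, 211 and 226, at 466 bp and 14 bp from the Calu3 summit. The region at chr1:233248756-233249447 held 1 member (rank 497) and a weaker region (rank 1469). In such stretches a pair does not stand for 1 site, and the Calu3 value counts for all of the 16HBE14o- regions within it.

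**Figure D3:**
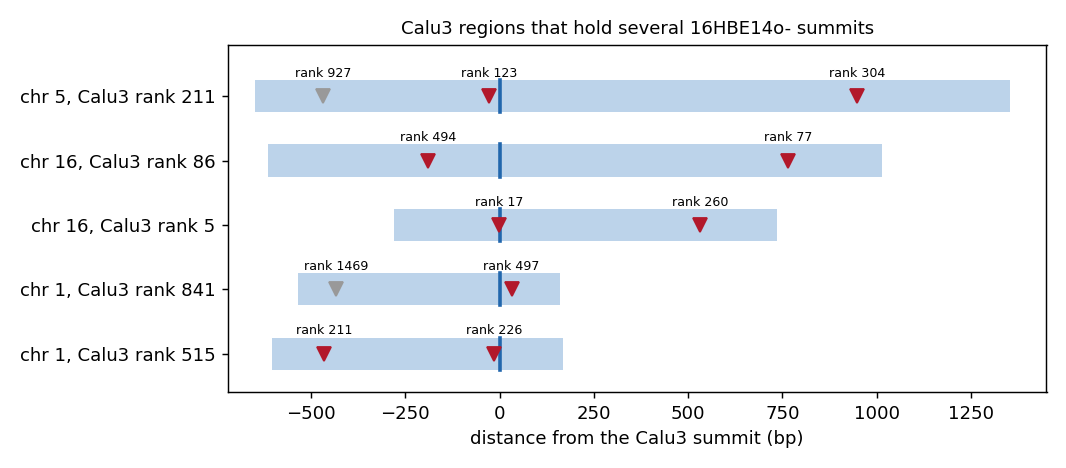
The 5 Calu3 regions of members that held more than 1 region of 16HBE14o-, as bars on an axis of distance in bp from the Calu3 summit (vertical line). Red triangles are the 16HBE14o- summits of members and grey ones those of regions below the cut, with their 16HBE14o- ranks; the farthest member summit lay 948 bp away.

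The width of the regions moved with strength in both lists, but in different ways. The Calu3 regions of members were a median of 405.5 bp wide over the 570 pairs (interquartile range 342 to 502.5), beside 339 bp for all top-25% Calu3 regions and 235 bp for the whole list. Their width rose with the fold enrichment (Spearman's rho = 0.57 across 570 pairs), from a median of 322.5 bp in the weakest of the 4 bins to 492 bp in the strongest bin. In 16HBE14o- almost every region had the standard width of 240 bp, and 53 of the 54 narrower ones were members. They made up 53 of 570 members (9.30%, 95% exact interval 7.04 to 11.99) and 1 of the other 2823 regions. Their widths ran from 60 to 234 bp and their ranks from 1 to 77. Nearly all regions at such ranks were members (95 of the first 100), so narrow width is not shown to mark members apart from rank. Of the first 40 regions of 16HBE14o-, 39 were narrower than 240 bp. Among the 53 narrow members the width fell as the signal fell (Spearman's rho = 0.84 across 53 regions), from 234 bp at rank 1 to 72 bp at rank 77. Width comes from the same peak calls as the signal, so it is no separate evidence of strength.

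**Figure D4:**
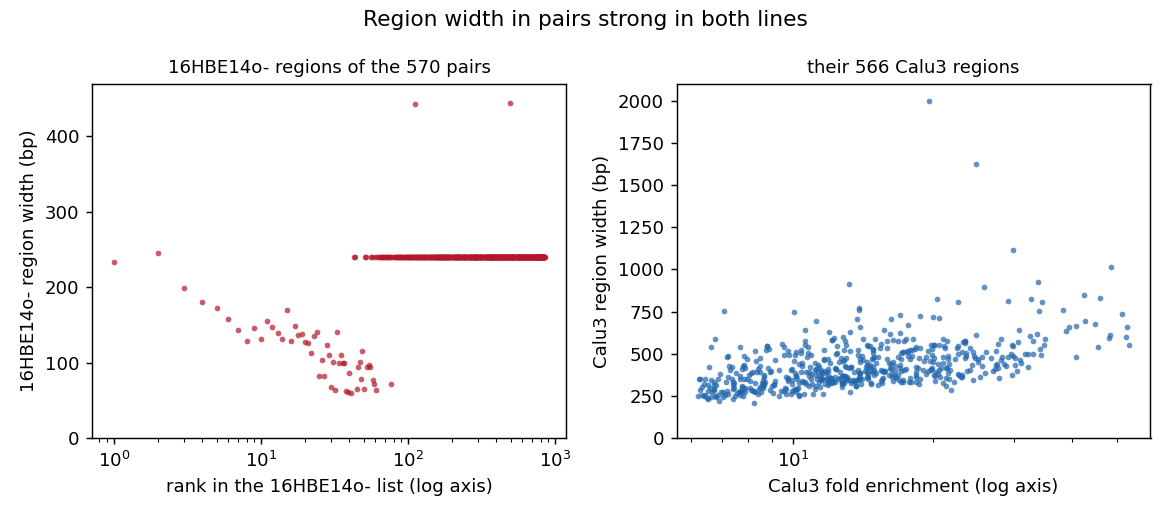
Left, width in bp of the 16HBE14o- region of each of the 570 members against its rank in that list (log axis); right, width of their 566 Calu3 regions against fold enrichment (log axis). In 16HBE14o- widths under 240 bp were found at ranks 1 to 77, while in Calu3 width rose with fold enrichment, up to 2000 bp.

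The narrow members were not always near the top of the Calu3 list. Their median Calu3 rank was 47 (interquartile range 19 to 260), against 597.5 for members of the standard width. The lowest was a region at chr14:24116631-24116691, 61 bp wide, which ranked 39 in 16HBE14o- with a signal of 159 but 1475 in Calu3 with a fold enrichment of 8.48.

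In the confidence columns, neither a q under 0.05 nor the highest 16HBE14o- value told members from the rest of the top 25%. All 566 Calu3 regions had a deposited q under 0.05, beside 73.3% of the whole Calu3 list, and the lowest −log10 q of a member was 8.06 (median 49.7, interquartile range 28.1 to 81.6, maximum 318). All 2564 top-25% Calu3 regions were under 0.05 as well, with a lowest −log10 q of 7.08. Their median −log10 q was 23.6 (interquartile range 14.7 to 42.04), lower than that of the members. All 570 members had the highest value of the ninth column of 16HBE14o-, 3.34, beside 31.1% of that list. All 849 top-25% regions of 16HBE14o- had it too. Both columns belong to the peak calls that the choice used, and nothing is read from them.

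Members were found on all 22 autosomes and on X, and their share of the strong regions differed between chromosomes. On chromosome 20, 26 of the 65 top-25% regions of 16HBE14o- were members (95% exact interval 28.04 to 52.9%), and on chromosome 14 27 of 53 were (50.9%, 95% exact interval 36.8 to 64.9). Both intervals lay below the 67.1% of all chromosomes. On chromosome 4 it was 25 of 28 (89.3%, 95% exact interval 71.8 to 97.7) and on chromosome 7 it was 34 of 39 (87.2%, 95% exact interval 72.6 to 95.7), both above it. The other 19 intervals included it. Neither these intervals nor those of Calu3 below were adjusted for the number of chromosomes looked at.

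The Calu3 side gave a partly different set of chromosomes. On chromosome 3, 17 of the 247 top-25% Calu3 regions belonged to members (6.88%, 95% exact interval 4.06 to 10.8), the lowest share of the 23 chromosomes, against 22.1% over all. Chromosome 5 was also below it, with 29 of 184 (15.8%, 95% exact interval 10.8 to 21.8). Chromosomes 14, 15 and 20 were above it, with 34.6%, 42.9% and 40.6%. Chromosomes 14 and 20 were low on the 16HBE14o- side with the same 27 and 26 members, here among 78 and 64 top-25% Calu3 regions. Chromosome 3 held 13.5% of all Calu3 regions and 5.89% of all 16HBE14o- regions but 2.98% of the members. Chromosome 20 held 10.3% of all 16HBE14o- regions but 4.56% of the members, beside 4.05% of all Calu3 regions. Binding, copy number of the lines and the way the lists were made cannot be told apart in these shares.

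**Figure D5:**
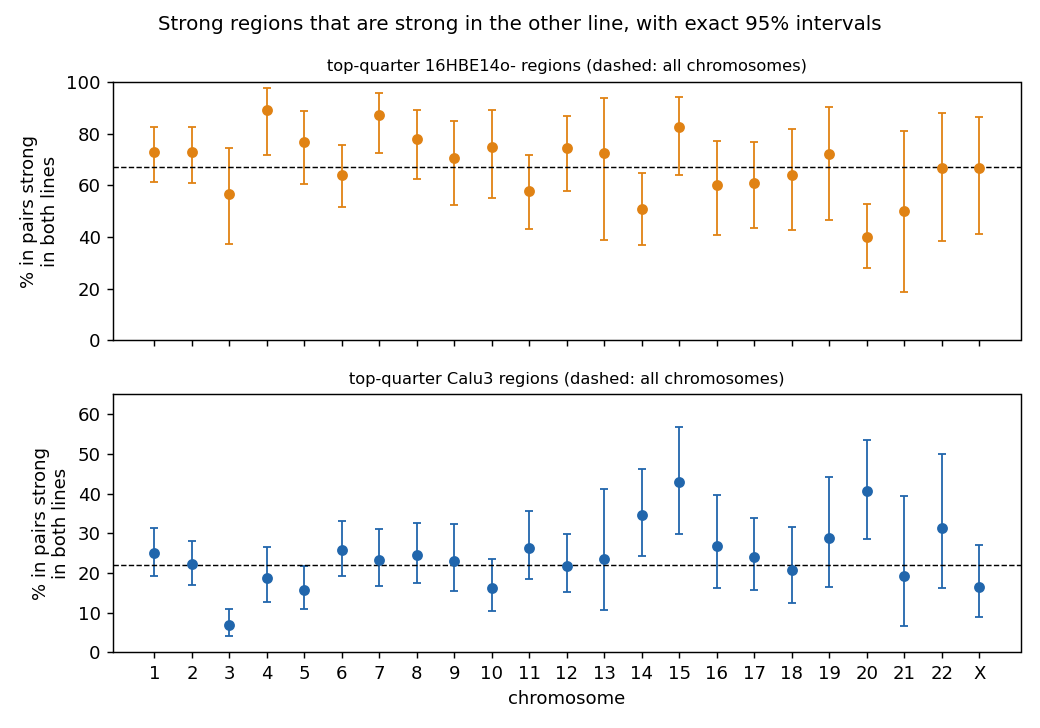
Percentage of the top-25% regions of 16HBE14o- (top) and Calu3 (bottom) on each chromosome that belonged to pairs strong in both lines, with exact 95% binomial intervals; dashed lines are the shares over all chromosomes, 67.1% and 22.1%. Chromosomes 14 and 20 were low in 16HBE14o- and high in Calu3, and chromosome 3 was the lowest in Calu3.

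The nearest other member was within 10 kb for 24 of the 570 (4.21%, 95% exact interval 2.72 to 6.2). This count was 4 of 381 with a reciprocal overlap of 50%, 8 of 237 in the top 10% of each list and 55 of 980 in the upper 50%. The top-25% regions of the lists, which are more numerous, had a top-25% neighbour within 10 kb in 5.89% (16HBE14o-) and 6.36% (Calu3) of cases. Another region of any strength, other members included, lay within 10 kb of 17.0% of the members in 16HBE14o-, beside 18.01% of the whole list, and of 24.03% of their regions in Calu3, beside 23.04%. In windows of 100 kb with 3 or more regions lay 14.2% of the members in 16HBE14o- (95% exact interval 11.4 to 17.4), beside 17.5% of the list. In Calu3 these were 24.2% (95% exact interval 20.7 to 28.0) and 23.5%.

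Those 24 members formed 12 neighbouring pairs, of which 4 shared a Calu3 region. In the other 8 the spacing can be read from each list, and it differs between the lists by no more than the summit distances of the 2 pairs together, so that its likeness is no separate observation. On chromosome 2, summits lay 1527 bp apart in 16HBE14o- and 1503 bp in Calu3, between the members from 102680817 to 102680945 (rank 16 in 16HBE14o-, 347 in Calu3) and from 102682294 to 102682533 (ranks 719 and 755). On chromosome 14 the spacing was 2723 bp and 2742 bp, and at a pair on chromosome 1 it was 3695 bp and 3682 bp. On chromosome 5 one pair was 4280 bp and 4261 bp apart and another 7641 bp and 7665 bp. The latter joined the Calu3 regions of rank 45 and 9. On chromosome 11 the spacing was 5301 bp and 5259 bp, between members of Calu3 ranks 657 and 2289, and on chromosome 7 it was 6788 bp and 6831 bp. The HMOX1 pair completed this set. Its members were the only 2 neighbours within 10 kb that both stood in the first 50 of both lists.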

How the data were processed

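BACH1 ChIP-seq was done in 2 airway lines with 2 replicates each. Per the labels, the authors deposited 1 list per line, made from its replicates through the irreproducible discovery rate. Per the submitters' processing notes, hg19 was the build. Caller, aligner, filters and control: not given in the sources used here. Depth is also unknown. The deposited Calu3 values are a fold enrichment (a ratio, read as such from the format and values), a −log10 p and a −log10 q. The deposited 16HBE14o- values are a peak signal of unstated scale and, in the ninth column, a score that goes below 0. Lists were never compared by value.

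The 44 overlapping rows of 16HBE14o- were merged into 22 regions with the highest signal and its summit. Each region was paired with the Calu3 region sharing most bases (at least 1 bp). The cuts were the 75th percentiles. Coordinates are 1-based, on hg19. Shares carry exact Clopper-Pearson 95% intervals. With 1 pooled list per line no test between samples was possible. The members and lists were chosen with earlier results of these data known. Regions named are the 20 with the lowest rank sum, 5 per direction of rank difference, 3 on each side of each cut, and the nearest neighbours; others were chosen after their values were seen. Motifs in the regions, distances to gene starts and the planned gene lists need an hg19 genome or annotation and were not analysed here. One locus is not reported here. The promoter came from RefSeq (GRCh38.p14) by symbol. Pairing was tested on simulated data. Python 3.11.15, numpy 2.4.6, pandas 2.3.3 and scipy 1.17.1 were used.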

Additional observations from a re-analysis of the deposited data

How the results depend on the processing

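The number of members was set mainly by the cut: taking the top 10% of each list gave 237 pairs and the upper 50% gave 980. Under the 5 other alternatives it ran from 381 (reciprocal overlap of 50%, where wide Calu3 regions drop out by construction) to 581 (Calu3 ranked by −log10 p), and 556 of the 581 were among the 570. With reciprocal overlap every member at ranks 1 to 40 of 16HBE14o- dropped out too, because its region covered under 50% of the Calu3 region. The median distance between summits was 11 bp in the top 10% and 15 bp in the upper 50%, outside its own 95% interval of 12 to 14 bp, and 13 or 14 bp under the other 7 settings. That interval was made from the ordered distances of the 570 members as if independent, and it covers no spread between replicates. Members within 10 kb of another numbered 24; there were 4 with reciprocal overlap, 8 in the top 10%, 55 in the upper 50%, and 62 at a distance of 50 kb. Under 5 further settings there were 16 to 26. Settings for the spacing other than the distance, and 5 of those for the summits, were chosen after seeing the data. No paired analysis was possible because the replicates of a line share a single list, and for the same reason none could be left out. Settings that need an hg19 genome or annotation were not run. The depth of the libraries is not known, so absence from a list does not show absence of binding.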
